A study of Mus musculus with 4 samples.

Results

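Immune cells (CD45+) of the mouse mammary gland were compared between a Nulliparous sample (mice that had not been pregnant) and a Lactation sample that had been sequenced together in the earlier of the study's droplet libraries. The 2 samples shared every step after tagging: cells of each carried an antibody with its own short DNA barcode (a hash tag), were pooled, and were read in 1 gene library and 1 tag library. A droplet barcode counted as a cell when it held 500 or more UMIs (unique molecular identifiers, each standing for 1 captured RNA molecule) from 300 or more genes, with no more than 10% of them mitochondrial. It was given the tag with the most counts when that tag had at least 10 counts and at least 2 times the counts of the next. By this rule 7160 cells were Nulliparous (tag HT4) and 3824 were Lactation (tag HT6), together 10984 of the 21604 cells of that library and of the 42781 cells of both libraries of the series. Another 4913 cells of the same library were Gestation (tag HT5) and are given as values beside the comparison. A further 3018 cells carried HT2, which the sheet calls Germ-free although the library's title lists an involution stage in its place, and 2689 cells had no tag call. The sources used here give neither strain, age and day of lactation nor the number of animals behind a tag. Each stage is thus 1 pooled sample: no comparison below has a replicate or a test, and every interval is a 95% interval that covers counting error only.

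The mammary gland holds resident immune cells in its epithelium and stroma. Intraepithelial lymphocytes of several lineages share an integrin that binds epithelial cadherin (Itgae, CD103) and carry granzymes, the proteases of killer cells. Macrophages are of a ductal kind that lies along the epithelium and a stromal kind that lies in the connective tissue and fat, and plasma cells of the lactating gland supply the immunoglobulin A of milk.

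The 2 barcodes that define the samples are shown because every value below rests on telling them apart. Capitals mark the 11 of 15 positions at which they differ.
HT4 (Nulliparous): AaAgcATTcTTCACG
HT6 (Lactation): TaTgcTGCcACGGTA
The tags were not equally strong. Median tag counts were 134 in Nulliparous cells and 30 in Lactation cells, and 0.964% and 22.5% of the cells had fewer than 20 counts of their own tag. The cells held 15661381 UMIs in Nulliparous and 9615920 in Lactation. The median UMI count per cell was 1565.5 in Nulliparous and 1974.5 in Lactation, and the median number of genes was 716 and 882. Scrublet, which scores barcodes against simulated pairs of cells, called 10.7% of Nulliparous and 4.52% of Lactation cells doublets. These were removed, which left 6393 and 3651 cells. The leukocyte gene Ptprc, which encodes CD45, had a UMI in 81.8% and 83.5% of the cells. The earlier and the later library shared 139 cell barcodes.

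Cells were grouped by clusters of their whole profiles. A cluster led by cell cycle genes, by genes such as Gzmb and Itgae, or by Retnla and Lyz1 was described by those genes first. Such a description replaced any marker name, and every other cluster was named from fixed marker genes. A cluster of 427 Nulliparous and 671 Lactation cells met the T cell marker rule but was counted as Gzmb/Itgae, outside the T-like shares. T-like cells were 39.5% of Nulliparous cells (95% interval 38.3 to 40.7), 23.8% of Gestation cells and 11.3% of Lactation cells (10.3 to 12.4). The share in Lactation was lower by 1.81 on the log2 scale than in Nulliparous, written below as a log2 ratio of -1.81 (-1.95 to -1.67). B-like cells were 16.8% of Nulliparous, 14.2% of Gestation and 3.78% of Lactation cells, a log2 ratio of -2.15 (-2.40 to -1.90). Cells of the Gzmb/Itgae class, named after the granzyme gene Gzmb and Itgae, went the other way. They were 10.1% of Nulliparous, 22.6% of Gestation and 31.0% of Lactation cells, a log2 ratio of 1.62 (1.49 to 1.74). A cluster entered this class with at least 2 of Gzmb, Gzmc, Itgae, Itga1 and Cd7 among its leading genes. The cluster led by Gzmc did not have Gzmb among them. Gestation lay between the others for T-like, B-like and Gzmb/Itgae cells.

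NK-like cells (natural killer) were 5.88% of Nulliparous, 13.2% of Gestation and 9.94% of Lactation cells. Macrophage-like cells were 5.26%, 10.6% and 9.53% in the same order. In these 2 classes the Gestation share was above both others. Cells led by Retnla and Lyz1 were 2.88% of Nulliparous, 1.38% of Gestation and 6.52% of Lactation cells, a log2 ratio of Lactation over Nulliparous of 1.18 (0.91 to 1.45). Cycling cells were 4.22%, 1.14% and 7.09%, and neutrophil-like cells were 1.67%, 1.08% and 2.85%. For both, Gestation was the lowest of the stages. Plasma-like cells, which secrete antibody, were 3.41% of Nulliparous and 5.51% of Lactation cells, monocyte-like cells were 3.41% and 4.52%, and cells like type 2 innate lymphoid cells (ILC2-like) were 0.860% and 1.70%. The ILC2-like cluster also had Cxcl10 and the interferon response gene Ifit1 among its leading genes. At a finer clustering (resolution 2.0) the ILC2-like cluster held 45 Nulliparous and 27 Lactation cells, a log2 ratio of 0.07 (-0.61 to 0.76). For the dendritic cells, which present antigen to T cells, the log2 ratio was 0.24 (-0.20 to 0.69) in cDC1-like and 0.26 (-0.08 to 0.61) in cDC2-like cells, so a difference was not detectable at this depth. Migratory DC-like cells were 1.20% of Nulliparous, 0.242% of Gestation and 0.740% of Lactation cells.

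**Figure D1:**
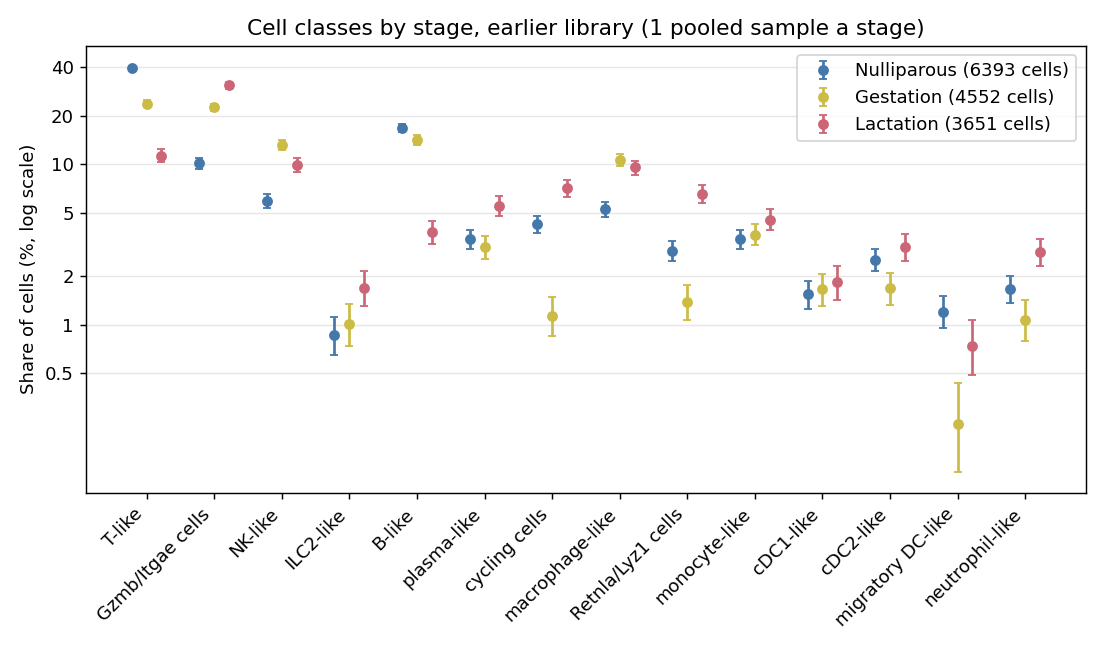
Share of cells of each class (log axis, percent) in the Nulliparous, Gestation and Lactation samples of the earlier library, with exact 95% binomial intervals that cover counting error only. T-like cells stand at 39.5% in Nulliparous and 11.3% in Lactation, and Gzmb/Itgae cells at 10.1% and 31.0%.

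Some of these shares moved with how the cells were selected and grouped. With a stricter tag rule, 20 counts and 4 times the second, the log2 ratio was 0.40 for macrophage-like, -0.34 for monocyte-like, -0.28 for neutrophil-like and -0.14 for plasma-like cells, so the last 3 had a lower share in Lactation. The Lactation cells with fewer than 20 tag counts were 62.5% of its neutrophil-like, 59.2% of its plasma-like, 47.9% of its monocyte-like, 38.8% of its macrophage-like and 37.7% of its B-like cells, but 4.85% of its T-like cells. Clustered without the genes of the lists used below, the log2 ratio was -1.32 for T-like, 0.99 for Gzmb/Itgae and -0.78 for ILC2-like cells. In cells of at least 1000 UMIs the T-like ratio was -0.81 and the B-like ratio -3.10. There a cluster led by Dapl1 and Lef1, with 1260 Nulliparous and 63 Lactation cells, did not meet the naming rule and fell outside the T-like class. At a mitochondrial limit of 5% the T-like ratio was -0.76. There a cluster led by Klra1 and Trgv2, with 357 Nulliparous and 570 Lactation cells, carried the T name. A cluster led by Icos, Rora and Il2ra, with Cd40lg and Cd5 among its top genes, carried the ILC2 name at that limit. It held 360 Nulliparous and 141 Lactation cells, against 55 and 62 in the ILC2-like class as first clustered, so cells with T cell genes were then outside the T-like class. Over the 10 alternative settings for T-like and B-like cells and the 9 for Gzmb/Itgae cells the ratio ran from -2.05 to -0.76 for T-like, from -3.10 to -2.15 for B-like and from 0.99 to 1.79 for Gzmb/Itgae cells.

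Marker genes summed over all cells of a sample do not depend on clusters. Trac, the constant region of the alpha chain of the T cell receptor, was at 1.81 UMIs per 10000 in Nulliparous, 1.08 in Gestation and 0.88 in Lactation, a log2 ratio of -1.03. Cd4, the helper T cell coreceptor, was at 0.33, 0.23 and 0.13. Cd3e, a chain of the CD3 complex shared by alpha-beta and gamma-delta T cells, was at 2.12, 2.07 and 2.18, and Cd3g at 3.14, 3.05 and 4.18. Trdc, the constant region of the delta chain, was at 0.29, 0.32 and 0.46. The alpha chain and Cd4 were thus lower in Lactation while Cd3e was level and Cd3g and the delta chain were higher. The B cell receptor component Cd79a was at 1.39, 1.45 and 0.59. Gzmb was at 4.0, 3.75 and 13.4 and Itgae at 1.09, 1.54 and 1.90. Ncr1, an activating receptor of NK cells and related innate lymphocytes, was at 0.54, 1.19 and 1.11. C1qa, a macrophage complement gene, was at 4.37, 4.59 and 5.78.

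The T-like class was made of 4 clusters, whose shares differed by unequal amounts. The cluster led by Igfbp4, Lef1, Tcf7 and Nsg2, genes of naive T cells, held 13.1% of Nulliparous, 3.27% of Gestation and 1.59% of Lactation cells, a log2 ratio of -3.04 (-3.42 to -2.66). The cluster led by Cd8b1, Cd8a and Dapl1 held 13.7%, 6.72% and 3.20%. The cluster led by Icos, Cd5 and Cd4 held 10.7%, 12.4% and 5.34%. The smallest, led by Cd163l1, Blk and Il17re, held 2.10%, 1.43% and 1.15%. Most Nulliparous T-like cells were thus in the Cd8b1 and Igfbp4 clusters (874 and 835 of 2524 cells), and the Icos cluster held the largest number of the Lactation T-like cells (195 of 412), which bears on every sum over the class. The median tag count in this class was 149 of HT4 in Nulliparous and 46 of HT6 in Lactation cells.

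**Figure D2:**
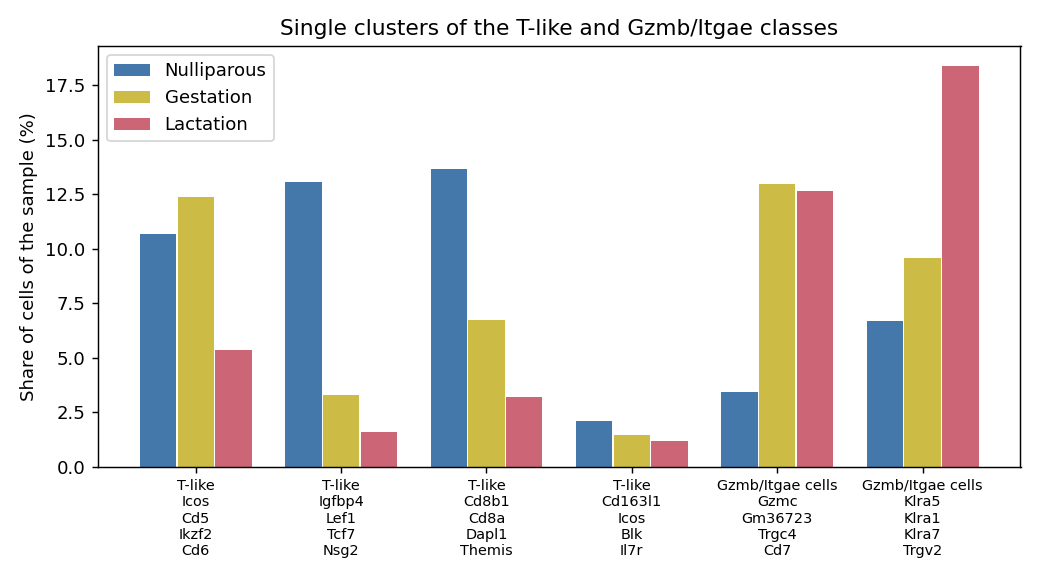
Share of each sample's cells (percent, bars from 0) in the single clusters of the T-like and Gzmb/Itgae classes, each labelled by its leading genes, in Nulliparous, Gestation and Lactation. The Igfbp4/Lef1 cluster stands at 13.1% in Nulliparous and 1.59% in Lactation, and the Klra5/Klra1 cluster at 6.68% and 18.4%.

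Within T-like cells, genes of naive and recirculating T cells were lower in Lactation and genes of effector and resident T cells were higher. Gene levels were taken as summed UMIs of the class per 10000 of its UMIs, and a gene counted as past 2-fold when it had at least 30 UMIs over both samples and a ratio of at least 2 either way. Of 8462 genes so measured in T-like cells, 3.32% were past 2-fold higher and 4.63% past 2-fold lower in Lactation, and the median log2 ratio was 0.04. Of 13 naive T genes, all 13 measured, 0 were past 2-fold higher and 6 were past 2-fold lower, with a median of -0.96. Dapl1, a gene of naive and memory T cells, had 591 UMIs in Nulliparous and 21 in Lactation, which is 1.62 and 0.365 per 10000 and a log2 ratio of -2.15 (-2.85 to -1.52). Ccr7, the chemokine receptor that guides cells into lymph nodes, was at 1.55 and 0.661 per 10000 (-1.23, interval -1.75 to -0.76). Gestation was at 0.632 per 10000 for Dapl1 and 0.828 for Ccr7, between the other stages for each. Satb1, a chromatin organiser of thymocytes and naive T cells, was at 4.66, 2.62 and 2.03 in stage order. Igfbp4 was at 1.82, 0.492 and 0.696, and Lef1, a transcription factor of naive T cells, at 2.53, 1.66 and 1.23. Il7r, the receptor for interleukin 7, was level at 5.22 and 5.41 per 10000. Outside the lists, Nsg2 was lower in Lactation with 461 and 23 UMIs (log2 -1.66), Il6st, the shared receptor chain of interleukin 6 cytokines, with 318 and 17 (-1.56), and the mitochondrial fatty acid enzyme Echs1 with 118 and 4 (-2.22, interval -4.12 to -0.82).

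The naive T difference was not the same inside each cluster. In the Igfbp4/Lef1 cluster the median over the 13 genes was 0.22, with 0 past 2-fold in either direction. In the Cd8b1 cluster it was -1.25, with 8 of 13 past 2-fold lower, and in the Icos cluster it was -0.51, with 5 of 11 past 2-fold lower.

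Cytotoxic genes had a median of 0.77 in T-like cells, with 4 of 12 past 2-fold higher and 0 lower. Gzmb had 226 UMIs in Nulliparous, 62 in Gestation and 150 in Lactation, or 0.620, 0.484 and 2.61 per 10000 (log2 2.07, interval 1.77 to 2.38). Gzma was at 2.43, 4.28 and 8.09 per 10000 (1.73, interval 1.57 to 1.90). Gzmk was at 0.101 and 0.400 and the cytokine gene Ifng at 0.332 and 0.870, while perforin (Prf1) was at 0.464 and 0.435. Free RNA sets a floor for the granzymes, since Gzma made up 18.1 UMIs per 10000 in droplets with fewer than 100 UMIs. After every cell was thinned to 500 UMIs, Gzma had a UMI in 5.82% of Nulliparous T-like cells (95% interval 4.94 to 6.81) and 9.71% of Lactation T-like cells (7.03 to 13). In B-like cells, which do not make it, the shares were 4.76% (3.56 to 6.21) and 2.17% (0.45 to 6.22). The Nulliparous T-like share thus lay within the interval of the B-like share and the Lactation one above it. For Gzmb the thinned shares were 2.06% and 8.25% in T-like cells against 0.560% and 1.45% in B-like cells. Unthinned, Gzmb was seen in 4.83% and 14.8% of T-like cells, whose median UMI counts were 1317 and 1330 (866.5 and 826.5 in B-like cells).

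Of the tissue residency list, 7 of 13 genes were past 2-fold higher and 1 was lower in T-like cells, with a median of 1.00. Itga1, the collagen-binding integrin CD49a, was at 0.573, 1.86 and 1.91 per 10000 in stage order. Cd160, a receptor of intraepithelial lymphocytes, was at 0.475, 1.01 and 1.81 (log2 1.93), and Rgs1, a regulator of chemokine signalling, at 2.00, 6.53 and 4.87. Itgae itself was within 2-fold at 0.765, 1.19 and 1.03. Ccr9, a gut homing receptor, was the one lower gene with 122 and 6 UMIs. Fgl2, which is not on the list, was at 0.420, 0.929 and 1.62 (1.95). In the Cd8b1 cluster the residency median was 1.31, with 7 of 10 past 2-fold higher and 1 lower, and in the Icos cluster it was 0.51.

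Genes of interleukin 17 T cells had a median of 1.45, with 6 of 8 past 2-fold higher and 0 lower. Cd163l1 (SCART1), a scavenger receptor of gamma-delta T cells, had 68 UMIs in 25 Nulliparous cells and 87 UMIs in 31 Lactation cells, which is 0.187 and 1.51 per 10000 (log2 3.02, interval 2.55 to 3.50). Gestation was at 0.164, so only the Lactation sample was high. Blk, a kinase of these cells, was at 0.222 and 0.783, Il23r, the interleukin 23 receptor, at 0.0521 and 0.226, and Maf at 0.859 and 2.07. The gamma chain constant region Trgc1 was at 0.189, 0.297 and 0.817 (2.11) and the delta variable segment Trdv4 at 0.0603, 0.101 and 0.400 (2.73). Trgc1 shares sequence with other gamma chain constant genes, so its counts are uncertain. Inside the Cd163l1/Blk cluster, of 134 Nulliparous and 42 Lactation cells, the log2 ratio was 2.37 for Cd163l1 and 2.19 for Trdc. The values over the whole class moved with the clustering. The list median was 0.05 at resolution 2.0 and when clustered without list genes, 0.12 at a mitochondrial limit of 5% and 0.60 in cells of at least 1000 UMIs. The Cd163l1 ratio was 0.41 at the 5% limit, 0.57 at resolution 0.5 and 0.91 at resolution 2.0, all within 2-fold, and 4.14 when clustered without list genes.

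Of 8 measured regulatory T genes, 0 were past 2-fold higher and 2 lower, with a median of -0.25, which was above 0 under 5 settings and reached 0.79 at a mitochondrial limit of 5%. Foxp3, the defining transcription factor of regulatory T cells, had 66 UMIs in Nulliparous, 17 in Gestation and 2 in Lactation (0.181, 0.133 and 0.0348 per 10000). Tnfrsf9 had 56, 16 and 2. In the list for STAT5 and prolactin signalling, 2 of 10 genes were past 2-fold higher and 0 lower. These were the feedback inhibitors Socs2, at 0.219, 0.383 and 0.957 per 10000 (log2 2.12, interval 1.60 to 2.64), and Cish, at 0.765, 1.28 and 2.03. Atp8a2, which encodes a phospholipid flippase, had the highest ratio of the genes named in T-like cells, 10 UMIs in Nulliparous, 28 in Gestation and 30 in Lactation (4.25, interval 3.18 to 5.45).

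**Figure D3:**
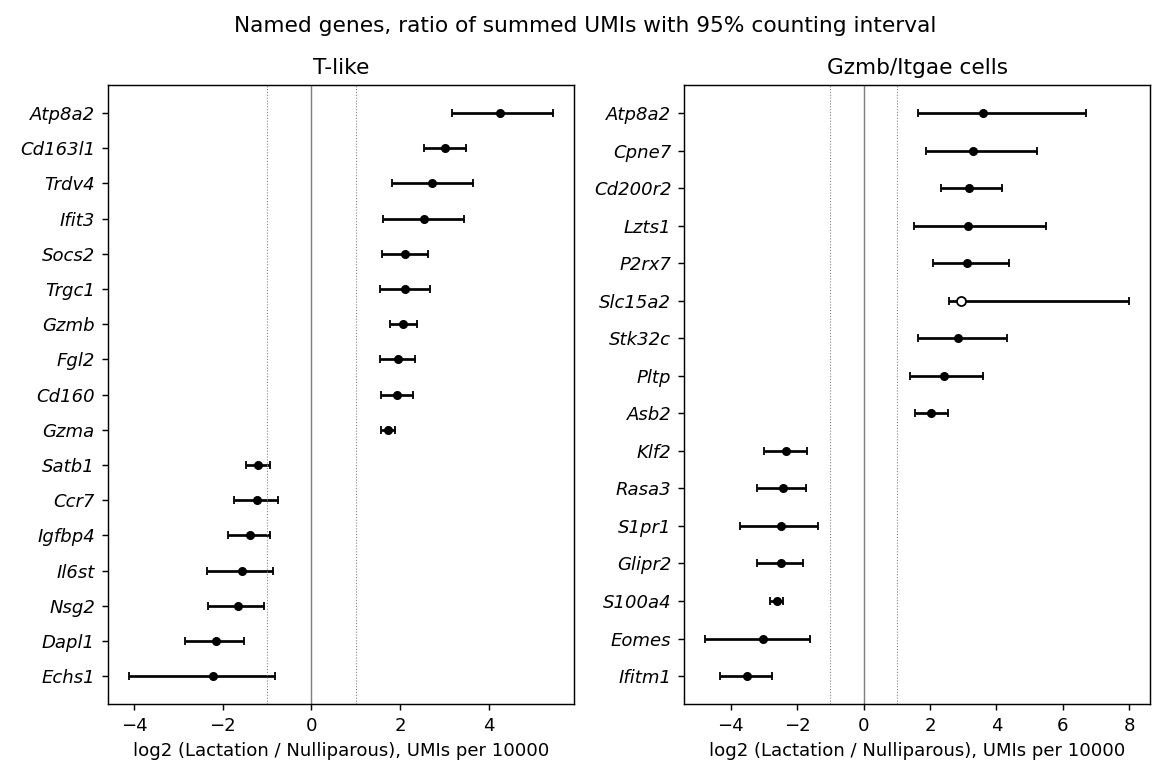
Log2 ratio of summed UMIs per 10000, Lactation over Nulliparous, of the named genes in T-like and Gzmb/Itgae cells, with 95% counting intervals (dotted lines mark 2-fold, an open point a gene with 0 UMIs in 1 sample, drawn at the ratio to 3 counts with its interval cut off at 8). Cd163l1 stands at 3.02 and Dapl1 at -2.15 in T-like cells, and S100a4 at -2.61 in Gzmb/Itgae cells.

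The Gzmb/Itgae class was made of 2 clusters. One was led by Gzmc, Trgc4, Cd7 and Itga1, held 3.44% of Nulliparous, 13% of Gestation and 12.7% of Lactation cells, and did not meet the rule for any marker name. The other was led by the NK receptor genes Klra5, Klra1 and Klra7 with the gamma chain segment Trgv2 and Cd3g, and held 6.68%, 9.58% and 18.4%. It met the marker rule for T cells, which the description by leading genes replaced. CD8 and gamma-delta genes were both present: after thinning, Cd8a had a UMI in 8.96% of Nulliparous and 8.30% of Lactation cells, Trdc in 3.4% and 4.77%, and Cd3e in 20.4% and 22.1%. Unthinned, Cd4 was seen in 1.08% and 0.177% of the cells, whose median UMI counts were 2233 and 2012. Genes of the Klra family, like those of the gamma chain constant regions, resemble each other in sequence, so their single counts are uncertain. The cluster of Klra genes held most cells of the class in both samples.

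In these cells 2.76% of 8113 genes were past 2-fold higher and 1.89% past 2-fold lower in Lactation. Of 12 measured cytotoxic genes 2 were past 2-fold higher and 1 lower, with a median of 0.34. Gzma had 16743 UMIs in Nulliparous, 15727 in Gestation and 63319 in Lactation, or 111, 109 and 267 per 10000 (log2 1.27). The chemokine gene Ccl5 was at 99.9, 154 and 204 per 10000. Gzmb was within 2-fold at 22.8, 13.5 and 35.1. Gzma after thinning was seen in 58.9% of Nulliparous cells (55.0 to 62.7) and 86.8% of Lactation cells (84.7 to 88.7), against the 4.76% and 2.17% of B-like cells. Its log2 ratio was 1.42 in the Gzmc cluster and 1.22 in the Klra cluster. Residency genes were level, with 0 of 13 past 2-fold either way and a median of 0.18, Itgae being at 5.14 and 5.43 per 10000.

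Of 8 measured naive T genes, 5 were past 2-fold lower and 0 higher, with a median of -1.23. Klf2, a transcription factor that maintains S1pr1, was at 0.597, 0.587 and 0.118 per 10000 (-2.34), and S1pr1, the receptor for exit from tissue, at 0.212, 0.104 and 0.0380 (-2.48). S100a4, a calcium-binding protein of motile and effector cells, was at 7.16, 1.82 and 1.17 per 10000 (-2.61, interval -2.81 to -2.42), so the Nulliparous sample alone was high. Inside the clusters the ratio was -2.42 and -3.06 for S100a4 and -3.10 and -1.76 for Klf2. Ifitm1 had 122, 10 and 17 UMIs (-3.49), Eomes, a transcription factor of NK and memory cells, 26, 17 and 5 (-3.03), Glipr2 86, 22 and 24, and Rasa3 76, 29 and 22.

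Among the genes higher in Lactation, Cd200r2 (a CD200 receptor family member) had 12 UMIs in Nulliparous, 43 in Gestation and 171 in Lactation, or 0.0796, 0.297 and 0.722 per 10000 (log2 3.18, interval 2.34 to 4.16). P2rx7, the receptor for extracellular ATP, had 8, 8 and 109 UMIs (3.12). Both held inside the clusters, with ratios of 2.68 and 3.50 for Cd200r2 and 2.23 and 3.56 for P2rx7. Slc15a2, a peptide transporter, had 0 UMIs in Nulliparous, 1 in Gestation and 36 in Lactation, so it was at least 7.64-fold higher when 0 is set at 3 counts. Asb2, a ubiquitin ligase subunit, was at 0.265, 0.511 and 1.09 per 10000. Cpne7 had 4, 36 and 62 UMIs, Stk32c 6, 22 and 67, Atp8a2 2, 25 and 38, Pltp 9, 18 and 75, and Lzts1 3, 4 and 42. Cpne7 and Atp8a2 were already near their Lactation level in Gestation, at 0.249 and 0.173 per 10000 against 0.262 and 0.161.

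NK-like cells, from a single cluster of 376 Nulliparous and 363 Lactation cells, had the lowest share of genes past 2-fold of the 12 classes. At resolution 2.0 the class split. A cluster led by Klra4, Klra8 and Eomes held 174 and 106 cells (log2 share ratio 0.09). Another, led by Prf1, Klra4 and Klra8, held 187 and 255 cells (1.26). The sums below are over the whole class, and the part of this mix in them was not tested. Of 4534 genes 1.3% were past 2-fold higher and 1.46% past 2-fold lower, and of 11 measured cytotoxic genes 0 were past 2-fold in either direction. Klrg1, a receptor of mature NK cells, had 19 UMIs in Nulliparous, 76 in Gestation and 44 in Lactation (0.345, 0.983 and 0.858 per 10000). Prdm1, the transcription factor Blimp-1, was at 0.381, 0.905 and 1.19 (log2 1.64, interval 0.91 to 2.43), Serpinb9b, a granzyme inhibitor, at 0.200, 0.504 and 0.838, the signalling protein gene Plek at 2.29, 3.94 and 4.58, and the chymase gene Cma1 at 0.744, 1.19 and 1.81. Adam17, a protease that sheds surface proteins, was at 0.290 and 0.741. Tcf7, a factor of immature NK cells and naive T cells, was at 1.03, 0.647 and 0.370 (-1.48). Of 10 measured residency genes 2 were past 2-fold lower and 0 higher: Itga1 at 1.38, 1.07 and 0.565, and Itgae at 0.798, 0.388 and 0.390. Icam2, Lgals3 and Emb were also lower, with log2 ratios of -1.90, -1.3 and -1.13. The Itga1 ratio was 0.22 when cells were assigned one by one by marker UMIs. Of 17 settings, Plek was not past 2-fold under 11, Adam17 and Itga1 under 5 each, Cma1 and Lgals3 under 4 each and Emb under 3. Klrg1, Prdm1 and Icam2 were not under 1 each, while Serpinb9b and Tcf7 were past it under all.

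The B-like class held 1072 cells in Nulliparous and 138 in Lactation, so its Lactation sums were shallow, with 119476 UMIs against 1018492. Past 2-fold were 2.83% of 4454 genes higher and 8.42% lower. Genes of mature B cells were level, with 0 of 12 surface genes past 2-fold in either direction (median -0.06) and 0 of 10 MHC class II genes (median -0.05). Ighm was at 33.6 and 39.3 per 10000 and Ighd at 12.3 and 11. The inducible heat shock gene Hspa1a was at 0.471 in Nulliparous, 3.99 in Gestation and 2.26 in Lactation (log2 2.26, interval 1.52 to 2.97), and Hspa1b at 0.795, 5.09 and 2.18. Besides the classes given below, Hspa1a was past 2-fold higher in T-like (1.11), Gzmb/Itgae (1.21), cycling (1.17) and monocyte-like cells (1.13). It was within 2-fold in NK-like (0.93), Retnla/Lyz1 (0.33), cDC1-like (0.32) and plasma-like cells (-0.04). In B-like cells Vim, S100a10, Slfn2 and Klf6 had log2 ratios between 1.07 and 1.29, and each was also higher in Gestation than in Nulliparous. Hvcn1, a proton channel of B cells, was at 4.65, 2.60 and 1.84 (-1.34), Cd24a at 3.03, 2.80 and 1.42 (-1.09), Jarid2 had 137, 59 and 5 UMIs, and Tle3 82, 33 and 1.

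Plasma-like cells were the least certain class, since 64.1% of them had no tag call at all. Of the cells with a call, 59.2% in Nulliparous and 31.8% in Lactation also held markers of another lineage. Of 5138 genes 0.837% were past 2-fold higher and 5.02% past 2-fold lower, the median over all genes was -0.18, and 3 of 6 measured switched immunoglobulin genes were past 2-fold higher with 0 lower. Igha, the heavy chain of immunoglobulin A, was at 1459 UMIs per 10000 in Nulliparous, 1451 in Gestation and 1488 in Lactation, a log2 ratio of 0.03. Jchain, which joins immunoglobulin A into dimers, was at 366, 372 and 375. Ighg2c had 54 UMIs in Nulliparous and 906 in Lactation, but 83.0% of the latter were in 1 cell, and of the 530 Lactation UMIs of Ighg1 95.8% were in 1 cell, so both were left out of the naming. The third of these genes, Ighg3, had 15 UMIs in 2 Nulliparous cells and 28 UMIs in 6 Lactation cells, of which 35.7% were in 1 cell. Genes of other lineages were among those past 2-fold. Gzma was at 1.99, 4.17 and 7.66 per 10000, Gzmb at 0.245, 0.596 and 0.840, and Ccl5 at 2.80, 11.2 and 6.11, while the myeloid genes Lyz2 and Il1b were at 10.4 and 0.711 in Nulliparous and 2.81 and 0.184 in Lactation. Cfp, the complement regulator properdin, had 48 and 1 UMIs. Without the cells that held another lineage's markers, the log2 ratio was 0.49 for Gzma instead of 1.94, 0.38 for Gzmb instead of 1.78, 0.22 for Ccl5 instead of 1.12 and -0.36 for Lyz2 instead of -1.89.

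**Figure D4:**
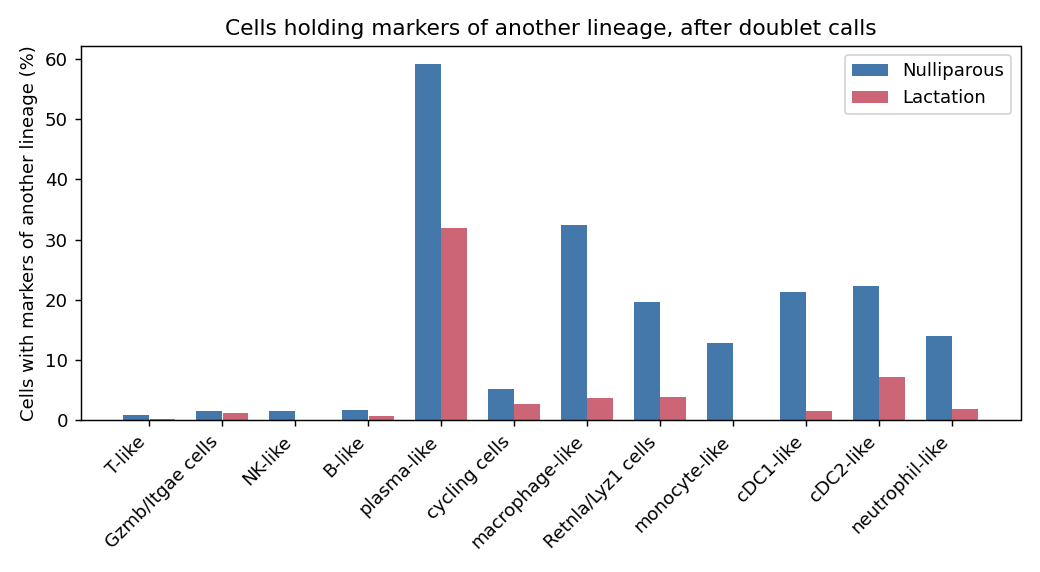
Share of cells of each class that also held markers of another lineage after doublet calls were removed (percent, bars from 0), in Nulliparous and Lactation. The bars stand at 32.4% and 3.74% in macrophage-like cells and at 0.872% and 0.243% in T-like cells.

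Cycling cells were 270 in Nulliparous and 259 in Lactation, and their proliferation genes were level, with a cell cycle list median of 0.08. Of 6647 genes 1.91% were past 2-fold higher and 2% past 2-fold lower. Of 13 NK receptor genes 2 were past 2-fold higher and 0 lower, with a median of 0.72, and of 9 measured naive T genes 0 were higher and 6 lower, with a median of -1.53. Gzma was at 63.6 UMIs per 10000 in Nulliparous, 41.9 in Gestation and 188 in Lactation (log2 1.56, interval 1.52 to 1.61) and Gzmb at 8.36, 5.61 and 22. After thinning Gzma was seen in 36.7% of Nulliparous cycling cells (30.9 to 42.7) and 72.6% of Lactation cycling cells (66.7 to 77.9), against 4.76% and 2.17% of B-like cells. Prf1 was at 0.389 and 1.12, the NK receptor gene Klra3 at 0.0973 and 0.539, and the chemokine gene Ccl3 at 0.292 and 1.30. Cd4 had 28 and 3 UMIs, Cd8b1, the beta chain of CD8, 146 and 37 (-1.89), the pan-T gene Cd6 88 and 13 (-2.67), the costimulator Icos 48 and 7 (-2.69), S1pr1 90 and 16 (-2.40), and Il7r 49 and 9. S100a4 was at 8.26 and 3.13 per 10000. In Gestation only 52 cells were in this class, where Cd8b1 was at 3.44 per 10000, above the 1.42 of Nulliparous and the 0.384 of Lactation.

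Macrophage-like cells, 336 in Nulliparous and 348 in Lactation, were led by Apoe and Mmp12, genes of the ductal kind, and by the complement gene C1qa. Past 2-fold were 3.12% of 6081 genes higher and 6.35% lower. The share of cells that also held markers of another lineage was 32.4% in Nulliparous and 3.74% in Lactation, and genes of the CD3 complex and T cell receptor summed to 4.55 and 0.749 UMIs per 10000. Of 7 measured cell cycle genes, all 7 were past 2-fold lower in Lactation, with a median of -3.74. Top2a had 102 UMIs in Nulliparous, 51 in Gestation and 3 in Lactation (log2 -4.69, interval -6.99 to -3.10), Stmn1 179, 114 and 13, Birc5 65, 27 and 0, and Pclaf 53, 23 and 0. Against 3 counts Birc5 was at least 16.4-fold lower and Pclaf at least 13.4-fold lower, and both entered the list median at that bound. Without the cells that held another lineage's markers the cell cycle median was -3.89. S100a4 was at 5.26, 0.419 and 0.627 per 10000 (-3.07, and -3.92 without those cells), and the lymphocyte cytokine gene Ltb had 117, 41 and 7 UMIs.

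The higher genes of Lactation macrophage-like cells included Fc receptors. Fcgr4, an activating receptor for immunoglobulin G, was at 1.15 UMIs per 10000 in Nulliparous, 2.54 in Gestation and 4.44 in Lactation (log2 1.95, interval 1.65 to 2.26), and Fcgr1, the high-affinity receptor, at 1.11, 1.92 and 3.27 (1.56). Slco2b1, an organic anion transporter of tissue macrophages, was at 0.335, 0.923 and 1.39, the MHC class I-like gene H2-M2 at 3.15, 5.70 and 8.17, the tetraspanin gene Cd81 at 3.13, 5.70 and 7.96, and the lectin-like receptor gene Klra17 at 0.0931, 0.252 and 0.627. For these genes Gestation lay between the other stages. Hspa1a was at 1.77, 7.09 and 5.47 and Hspa1b at 1.56, 6.38 and 4.31. Of 9 ductal macrophage genes 1 was past 2-fold higher and 0 lower, with a median of 0.40. Apoe, the lipid carrier, was at 194, 190 and 369 per 10000 and Mmp12, an elastase, at 3.14, 11 and 3.44, so the latter was high only in Gestation. Of 11 lipid handling genes 3 were past 2-fold higher and 3 lower. The lipid sensor Trem2 (0.196 and 0.663 per 10000), the fatty acid receptor Cd36 (0.382 and 1.02) and lipoprotein lipase Lpl (1.29 and 3.03) were higher, and the fatty acid binding proteins Fabp4 and Fabp5 and the sterol receptor Nr1h3 were lower. Of 13 lysosome genes 1 was past 2-fold higher and 1 lower, with a median of 0.48. At resolution 2.0 the class split by leading genes, and Fcgr4 had a ratio of 1.48 in the H2-M2/Mmp12 cluster (153 and 264 cells) and 2.51 in the Dnase1l3/C1qb cluster (172 and 76 cells).

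Retnla/Lyz1 cells, 184 in Nulliparous, 63 in Gestation and 238 in Lactation, met the macrophage marker rule but were led by Retnla, a gene of alternative activation, with Lyz1 and Fn1. Past 2-fold were 1.73% of 5075 genes higher and 2.62% lower. Of 12 measured stromal macrophage genes 6 were past 2-fold higher and 0 lower, with a median of 0.93, but the median was -0.25 at a mitochondrial limit of 5%, 0.34 with only the Nulliparous and Lactation cells clustered and 0.41 at resolution 2.0. Ccl8, a chemokine of stromal and perivascular macrophages, had 94 UMIs in 16 Nulliparous cells and 555 UMIs in 52 Lactation cells, or 1.64 and 7.33 per 10000 (log2 2.16, interval 1.84 to 2.49), with Gestation at 1.01. Folr2, a folate receptor, was at 0.994, 0.730 and 3.50 (1.82), Cbr2 at 1.20, 1.35 and 3.16, Igf1, a growth factor, at 0.680, 0.168 and 1.41, and Gas6, a ligand of receptors for dying cells, at 0.558, 0.562 and 1.28. Ednrb, an endothelin receptor, had 12, 0 and 56 UMIs. Lactation was the highest of the stages for these genes, while Igf1 and Ednrb were lower in Gestation than in Nulliparous. The Gestation values rest on 63 cells, with 3 UMIs of Igf1. The ficolin gene Fcna was at 0.244 and 1.43 per 10000, but its ratio turned negative under 5 of the settings tried, and under 4 of these the cells led by Folr2 and Ccl8 formed a cluster of their own. At resolution 2.0 that cluster, led by Pf4, Ccl8 and Folr2, held 49 Nulliparous and 73 Lactation cells, and inside it the ratio was 1.69 (1.37 to 2.02) for Ccl8, 1.35 for Folr2 and 2.41 for Fcna. Under 5 of the settings tried fewer than 3 UMIs of Ccl8 and of Folr2 were left in the Retnla/Lyz1 cells, so no ratio was computed. At resolution 2.0 the remaining Retnla/Fn1/Lyz1 cluster held 101 and 139 cells.

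Of 13 immediate early genes in Retnla/Lyz1 cells 3 were past 2-fold lower and 0 higher, with a median of -0.78. Egr1 was at 3.37 UMIs per 10000 in Nulliparous and 1.61 in Lactation, Dusp1 at 5.70 and 2.60, and Nfkbia at 2.55 and 1.19. Of 10 measured cell cycle genes 8 were past 2-fold lower and 0 higher, with a median of -1.49. Ccnb2 had 37 UMIs in Nulliparous and 5 in Lactation, and Hmgb2 was at 3.30 and 1.18 per 10000. The T cell genes Trbc2 (62 and 12 UMIs), Cd3d (51 and 14) and Ltb (29 and 3) were lower too. Cells with another lineage's markers were 19.6% in Nulliparous and 3.78% in Lactation, and without them the cell cycle median was -1.0 and the Hmgb2 ratio -0.97. UMIs of Igkc, Igha and Jchain, which macrophages do not make, came to 6.47 per Nulliparous cell and 23.7 per Lactation cell in this class, against 5.04 and 5.84 per T-like cell. A single cell held 49.3% of the Lactation Igha UMIs of the class, and a single cell held 39.6% of its Jchain UMIs. The part of these values in the other differences was not tested.

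Monocyte-like cells numbered 218 and 165. Of 3105 genes 1.71% were past 2-fold higher and 2.48% past 2-fold lower. Chil3, a chitinase-like protein, was at 7.82 UMIs per 10000 in Nulliparous, 7.41 in Gestation and 20.1 in Lactation (log2 1.36, interval 1.17 to 1.56), and Ly6c2 at 3.68, 4.67 and 8.44 (1.20). Hspa1b was at 1.76, 7.37 and 4.99, and Lpl at 0.903, 0.815 and 2.13. The T cell receptor genes Trbc1 (34 and 0 UMIs) and Trbc2 (45 and 1) and the lymphocyte chemokine gene Ccl5 (162 and 31) were lower, and 12.8% of the Nulliparous cells held another lineage's markers. None of the 165 Lactation cells did, which allows a share of up to 1.82%. C1qa, with 53 and 13 UMIs, had a ratio of 0.03 in cells of at least 1000 UMIs, and Ccl5 a ratio of 0.12 at a mitochondrial limit of 5%.

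In cDC1-like cells (99 and 67) 3.42% of 2395 genes were past 2-fold higher and 3.05% past 2-fold lower. Of 11 measured cell cycle genes 5 were past 2-fold higher and 0 lower, with a median of 0.96. Mcm7, a subunit of the replication helicase, was at 0.655, 0.687 and 2.13 UMIs per 10000 in stage order (log2 1.70, interval 0.98 to 2.47), DNA ligase Lig1 at 0.300, 0.606 and 1.15, and Cdca8 at 0.300, 0.525 and 1.15. Lower were Pim1 at 2.26, 1.09 and 0.780, Junb at 2.89, 2.02 and 1.19, Rgs1 at 1.26, 1.21 and 0.246, and C1qa with 45, 5 and 7 UMIs. In cDC2-like cells (162 and 111) 1.5% of 3272 genes were past 2-fold higher and 3.7% past 2-fold lower. Hspa1a was at 2.32, 8.11 and 6.44 and Hspa1b at 2.15, 5.62 and 6.0, so both were high in Gestation also, and Ccl3 was at 0.702, 2.16 and 1.97. Lower were Cd209d, a lectin of the class, at 1.72, 0.541 and 0.509 (-1.76), the adhesion gene Epcam with 40, 9 and 3 UMIs, Irf8, a factor of the cDC1 lineage, at 4.57, 4.0 and 1.97, and the macrophage genes Mmp12 (34, 19 and 1 UMIs) and Apoe (8.51, 4.22 and 3.56 per 10000). Cells with another lineage's markers were 21.2% and 1.49% of cDC1-like cells and 22.2% and 7.21% of cDC2-like cells.

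Neutrophil-like cells (107 and 104) had 872 genes measured, of which 8.94% were past 2-fold higher and 13.5% past 2-fold lower. The median over all genes was 0.19, so differences are read against it. Cxcr4, the bone marrow retention receptor that aged neutrophils regain, was at 0.687 UMIs per 10000 in Nulliparous, 3.14 in Gestation and 4.0 in Lactation (log2 2.54, interval 1.45 to 3.79). The cyclooxygenase gene Ptgs2 was at 7.56, 13.2 and 18.7, Pim1 at 9.69, 14.2 and 24.7, and Nr4a1, an immediate early receptor, at 1.91, 4.81 and 6.59. Of 13 immediate early genes 2 were past 2-fold higher and 0 lower, with a median of 0.61. Wfdc17 was at 56.2, 9.83 and 11.4 (-2.30), and the ribosomal protein genes Rps18 (193 and 7 UMIs) and Rpl12 (86 and 5) were lower. Cells with another lineage's markers were 14.0% and 1.92%, and without them the ratio was -2.78 for Rps18 instead of -4.16 and -1.75 for Rpl12 instead of -3.48.

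Genes induced by interferon were past 2-fold higher in several lineages. The list holds 16 genes. In T-like cells 7 of 13 measured were past 2-fold higher and 0 lower, with a median of 1.04 against 0.04 over all genes. In macrophage-like cells 5 of 16 were higher and 0 lower (median 0.82), in Retnla/Lyz1 cells 4 of 14 and 0 (0.78), in cDC2-like cells 3 of 12 and 0 (0.72), in neutrophil-like cells 3 of 7 and 0 (0.67), in cDC1-like cells 1 of 8 and 0 (0.68), and in Gzmb/Itgae cells 3 of 9 higher and 1 lower (0.42). Of all genes measured, 8.94% were past 2-fold higher in neutrophil-like, 3.42% in cDC1-like, 3.32% in T-like and 3.12% in macrophage-like cells. That share was 2.76% in Gzmb/Itgae, 1.73% in Retnla/Lyz1 and 1.5% in cDC2-like cells. The median over all genes was 0.19 in neutrophil-like, 0.07 in cDC1-like and 0.04 in Gzmb/Itgae cells. It was -0.08 in macrophage-like, -0.04 in Retnla/Lyz1 and -0.0086 in cDC2-like cells. In B-like cells 0 of 6 were past 2-fold with a median of 0.67, in monocyte-like cells 0 of 14 with 0.37, and in NK-like cells 0 of 6 with 0.10. The median was 0.26 in cycling and -0.02 in plasma-like cells. Inside the T-like clusters it was 1.29 in the Icos, 1.22 in the Cd8b1 and 0.51 in the Igfbp4 cluster. Over the alternative settings the median ran from 0.16 to 1.09 in T-like, 0.76 to 1.32 in macrophage-like and 0.03 to 0.90 in cDC2-like cells. At resolution 2.0 cells led by Ifit1, Cxcl10, Ifit3 and Isg15 formed an unnamed cluster of 41 Nulliparous, 29 Gestation and 64 Lactation cells. The part of such cells in the class values was not tested.

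**Figure D5:**
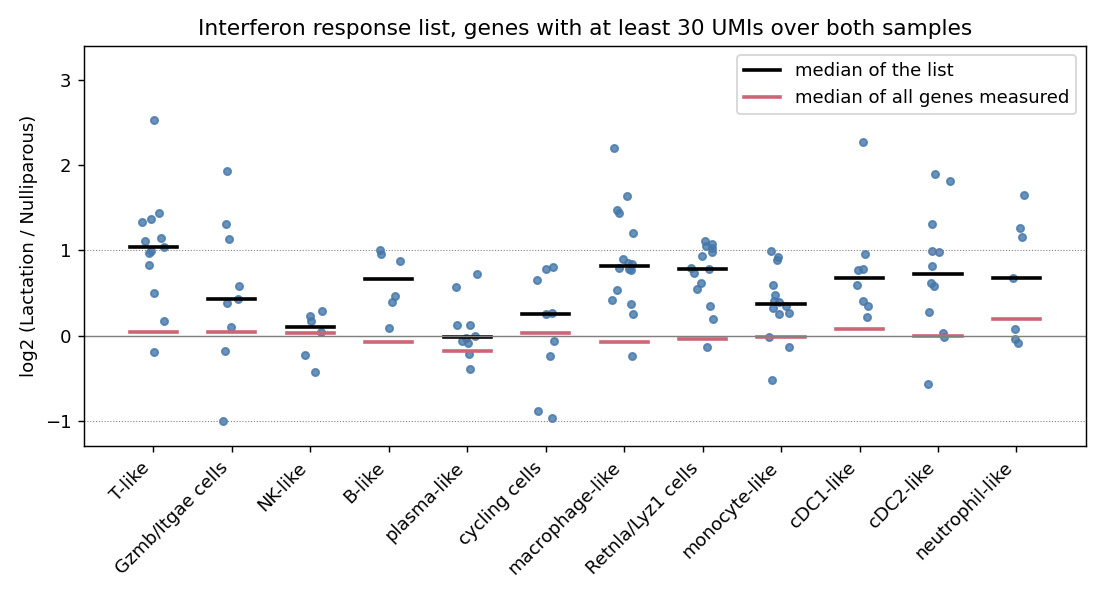
Log2 ratio of Lactation over Nulliparous of each interferon response gene with at least 30 UMIs over both samples, by class (points), with the median of the list and of all genes measured in the class (bars) and dotted lines at 2-fold. The list median stands at 1.04 in T-like, 0.82 in macrophage-like and 0.10 in NK-like cells.

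Among single members, Ifi27l2a, a small interferon-induced membrane protein, was at 4.42 UMIs per 10000 in Nulliparous, 4.86 in Gestation and 11.4 in Lactation T-like cells, and at 2.92, 4.20 and 14.1 in cDC1-like cells (log2 2.27, interval 1.95 to 2.60). In Retnla/Lyz1 cells it was at 17.5, 13.9 and 35.7. Ifit3, which restrains viral RNA, had 23, 8 and 21 UMIs in T-like cells (2.53, interval 1.61 to 3.45) and was at 0.307, 0.312 and 0.958 per 10000 in macrophage-like cells. Irf7, the factor that amplifies type I interferon, was at 0.754, 0.671 and 2.04 in macrophage-like and 0.723, 0.433 and 1.80 in cDC2-like cells. In macrophage-like cells Ifi44 had 18, 32 and 63 UMIs (2.21), and in cDC2-like cells Oasl2, of the oligoadenylate synthetase family, had 15, 8 and 33 (1.81). For most of these, Gestation was near Nulliparous and Lactation alone was high. After thinning, the ratio of Ifit3 in cDC2-like cells was -0.45, on few UMIs.

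Interferon-stimulated genes are known to be switched on through a promoter element bound by the ISGF3 complex. The motif TTTCNNTTTC, searched on both strands with overlapping matches marked together, was found in 1131 of 32851 RefSeq promoter entries of mouse build GRCm38.p6 (3.44%), each 250 bases before to 50 bases after a start. Entries were matched for 9 of the 16 list members and 6 of the 9 held the motif. The promoters of Ifit3 and Isg15 are shown because both hold it and both genes were past 2-fold higher in at least 2 classes. Motif matches are in capitals, a match being a description of letters and not a measured binding site.
Ifit3 promoter (GRCm38.p6, chr19:34583279-34583578, plus strand): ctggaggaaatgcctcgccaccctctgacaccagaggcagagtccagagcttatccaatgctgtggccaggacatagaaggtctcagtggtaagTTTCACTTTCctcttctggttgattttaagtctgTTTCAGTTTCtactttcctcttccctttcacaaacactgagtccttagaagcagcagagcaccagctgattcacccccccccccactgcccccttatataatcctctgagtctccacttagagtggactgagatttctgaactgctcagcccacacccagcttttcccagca
Isg15 promoter (GRCm38.p6, chr4:156200769-156201068, minus strand): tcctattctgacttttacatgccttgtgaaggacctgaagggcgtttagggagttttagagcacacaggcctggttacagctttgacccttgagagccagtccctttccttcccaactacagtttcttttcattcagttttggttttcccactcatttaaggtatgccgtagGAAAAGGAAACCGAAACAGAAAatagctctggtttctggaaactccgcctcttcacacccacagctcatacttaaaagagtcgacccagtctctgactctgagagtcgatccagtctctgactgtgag
Isg15, a ubiquitin-like protein, was at 0.137 UMIs per 10000 in Nulliparous, 0.211 in Gestation and 0.296 in Lactation T-like cells, and at 0.652, 0.635 and 1.17 in macrophage-like cells. Irf7, Oasl2 and Ifi44 had no match in this window and were past 2-fold higher in 4, 2 and 1 classes.

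The later library also holds a tag called Lactation, of only 138 cells, and no Nulliparous sample with counts, so the comparison could not be repeated there. In it 63.0% of cells were T-like (54.4 to 71.1), 1.45% B-like and 7.97% Gzmb/Itgae cells. That library was clustered on its own. Its Gestation sample, of 2560 cells, had 50.7% T-like, 14.4% B-like and 8.32% Gzmb/Itgae cells, against 23.8%, 14.2% and 22.6% in the earlier library. The T-like and Gzmb/Itgae shares of a stage thus differed between the libraries beyond counting error.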

How the data were processed

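Gene and tag matrices of the earlier library were used, and those of the later one for a few shares set beside them. Both hold raw counts per barcode (UMI counts of genes, counts of tags), as deposited by the authors, with 10x Genomics 3' v3.1 chemistry per the labels' protocols. Per the file headers, Cell Ranger 4 made the matrix of the earlier library, while Cell Ranger 6.1.0 and mm10 stand in the submitters' processing notes. That matrix lists 1347735 barcodes with 56300251 UMIs, of which 90.4% were in cells. Of 55487 gene entries, 234 share a symbol with another and were not measured. Samples came from the deposited sheet that pairs tags with names.

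Doublets were called with Scrublet (expected rate 0.08). All cells left in the library were clustered with scanpy 1.11.5 (2000 variable genes, 30 components, 15 neighbours, Leiden resolution 1.0). Clusters were named from fixed markers, with at least 3 markers detected in 10% of cells. The descriptions by leading genes (cycling, Gzmb/Itgae, Retnla/Lyz1) were set after the clusters were seen and took precedence over a marker name. Classes with at least 50 cells in each sample were summed, and ILC2-like and migratory DC-like cells are given as shares only. Share intervals are exact (Clopper-Pearson), and gene ratio intervals are exact for a ratio of 2 Poisson counts. A count of 0 was set at 3 counts per sample for a ratio. Genes named were, per class and direction, among the 10 past 2-fold whose interval lay farthest from no difference, with no cell holding over 20% of the higher sample's UMIs, plus members of the lists. Mitochondrial, haemoglobin, milk protein and unnamed genes, Xist, Lars2, Mir6236, CT010467.1 and immunoglobulin segments and constant regions were not eligible by the first part. A cell held another lineage's markers when it had at least 2 UMIs of CD3 and T cell receptor genes or of B cell markers, or at least 3 of C1qa, C1qb, C1qc and Lyz2, outside its own lineage. The ratio function was tested on simulated data. Members and lists were chosen with earlier results of these data known.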

Additional observations from a re-analysis of the deposited data

Results flagged for a closer look

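Tag HT1, which the library's sheet does not name, had 1303 counts in the cells that passed the filters, a signal in data that no comparison uses. It reached 10 counts in 3 cells, against 8366 cells for HT4. Tag reads that matched no listed tag made up 9.31% of all tag counts in these cells, also outside the comparison.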

How the results depend on the processing

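No paired analysis was possible because each stage is 1 sample with no replicate number. Counts of genes past 2-fold followed the UMI minimum, since fewer or more genes were then measured. At 10 UMIs they were 1403 in T-like, 995 in Gzmb/Itgae, 1521 in B-like, 1524 in macrophage-like and 974 in Retnla/Lyz1 cells, and at 100 UMIs they were 135, 82, 39, 139 and 34, against 673, 377, 501, 576 and 221. In cells of at least 1000 UMIs the T-like count was 261, and with doublet calls kept the B-like count was 805. With each cell thinned to 500 UMIs the counts were 208 in Gzmb/Itgae, 323 in B-like, 127 in macrophage-like and 45 in Retnla/Lyz1 cells.

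Log2 share ratios moved as follows. In cells of at least 1000 UMIs they were -0.81 for T-like, 1.37 for Gzmb/Itgae, -3.10 for B-like, -0.24 for ILC2-like and -1.01 for neutrophil-like cells. At a mitochondrial limit of 5% they were -0.76, 1.47, -2.61 and -0.66 for the first 4 of these. Clustered without list genes they were -1.32 for T-like, 0.99 for Gzmb/Itgae and -0.78 for ILC2-like cells. With cells assigned one by one they were -1.61 for T-like and 1.82 for NK-like cells. With only the Nulliparous and Lactation cells clustered they were -2.05 for T-like and 1.75 for Gzmb/Itgae cells. At resolution 2.0 the T-like ratio was -1.65 and the ILC2-like ratio 0.07. With doublet calls kept ILC2-like cells had -0.0094. Under the tag rule of 20 counts and 4 times the second they were -1.46 for T-like, 1.79 for Gzmb/Itgae, -2.52 for B-like, 0.40 for macrophage-like, -0.34 for monocyte-like, -0.28 for neutrophil-like and -0.14 for plasma-like cells. T-like and B-like ratios were negative and Gzmb/Itgae, NK-like and macrophage-like ratios positive under every setting run. The causes of the other moves were not tested.

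Few single genes changed sign. Fcna in Retnla/Lyz1 cells had -0.32 in cells of at least 1000 UMIs, -0.66 at the mitochondrial limit of 5%, -0.54 with doublet calls kept, and -0.31 with only these 2 samples clustered and at resolution 2.0. C1qa in monocyte-like cells had 0.025 and Irf8 in cDC2-like cells 0.27 in cells of at least 1000 UMIs, and Ccl5 in monocyte-like cells had 0.12 at the 5% limit. Itga1 in NK-like cells had 0.22 with cells assigned one by one, and Epcam in cDC2-like cells 0.41 with only these 2 samples clustered. Thinned, Eomes in Gzmb/Itgae cells had 0.19 and Ifit3 in cDC2-like cells -0.45. The naive T median in macrophage-like cells was 0.22 without cells that held another lineage's markers. These single genes made up 12 of 2136 values. Of 908 list medians 31 had the other sign. Among them were the natural killer receptors in T-like cells (0.64, but -0.63 in cells of at least 1000 UMIs), the stromal macrophage and complement lists in Retnla/Lyz1 cells (0.93 and 0.65, but -0.25 and -0.39 at the 5% limit), switched immunoglobulin in plasma-like cells (0.55, but -0.06 under the tag rule of 20 counts), heat shock in macrophage-like cells (0.44, but -0.03 with doublet calls kept) and regulatory T in T-like cells (-0.25, but 0.79 at the 5% limit). Of 132 named genes and classes past 2-fold, 77 were past it in the same direction under every setting that gave a value and 55 were not under at least 1. The tag rule of 3 counts, the removal of cells with another lineage's markers and the lists inside single clusters were chosen after seeing the data. Depth limits the B-like, monocyte-like, dendritic and neutrophil-like sums most, with 84932 to 294805 UMIs in Lactation.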

Other observations

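Milk protein RNA, which immune cells do not make, was at 11.8 UMIs per 10000 in Nulliparous, 13.6 in Gestation and 11.5 in Lactation T-like cells, and at 8.13, 12.3 and 8.13 in Gzmb/Itgae cells. In macrophage-like cells it was at 14.4, 36.6 and 15 per 10000 and at 4.59, 6.35 and 3.52 UMIs per cell, so Gestation was the highest on both scales and the order of the other two turned with the scale. Single milk genes differed there: Csn1s2b was at 1.01 per 10000 in Nulliparous and 2.74 in Lactation, and Glycam1 at 1.93 and 0.774. The other milk genes measured in this class were within 2-fold. A single Nulliparous cell held 28.0% of that sample's Glycam1 UMIs in the class, and a single cell held 30.8% of its Csn1s2a UMIs. In Retnla/Lyz1 cells milk protein RNA was at 7.27, 9.38 and 10.3 per 10000. UMIs of Igkc, Igha and Jchain per macrophage-like cell were 7.84, 13.4 and 14.4, against 5.04, 5.23 and 5.84 per T-like cell. In Lactation macrophage-like cells a single cell held 64.5% of the Igha UMIs, and a single cell held 47.8% of the Jchain UMIs.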
